A study of Rattus norvegicus with 36 samples.

Results

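Transcripts of 8 liver hydrolases that cleave carboxylic esters or neutral fats were followed in the livers of rats dosed with TBPH, short for bis(2-ethylhexyl) tetrabromophthalate. This flame retardant is a brominated phthalate diester. The members were 4 carboxylesterases (Ces1c, Ces1d, Ces1e and Ces2c), the deacetylase Aadac and the lipases Lipc, Lipa and Cel, taken by name from the 14217 genes that the array annotation gives as the single symbol of a probe set. All 8 were found, on 9 of 31042 probe sets, and each gene was read on its brightest probe set over the 36 arrays. RNA came from the left liver lobe of male Sprague Dawley rats, 7 weeks of age when the study began, that had received TBPH in corn oil by gavage on 5 consecutive days and were necropsied 1 day after the last dose. The vehicle group received corn oil alone by the same route. The dosed groups received 0.07 or 0.71 mg/kg at the low end, 7.06 mg/kg in the middle, and 70.6 or 706 mg/kg at the high end, with 6 arrays in each of the 6 groups. Since the labels number replicates but do not tie each to its own animal, p-values measure the spread between these arrays only, which may be technical.

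Phthalate diesters are cleared in a first step by hydrolysis of 1 ester bond, which leaves a monoester and an alcohol. Carboxylesterases, serine hydrolases of the hepatocyte endoplasmic reticulum and of plasma, carry out such reactions on drugs, esters and stored fat, and Aadac is a serine hydrolase of the same membranes. Hepatic lipase (Lipc) acts on lipoproteins in the liver sinusoid, lysosomal acid lipase (Lipa) on cholesteryl esters and triglycerides taken up by cells, and bile salt-dependent lipase (Cel) mainly in the gut lumen after secretion by the pancreas.

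All values are log2 RMA values (background-corrected, quantile-normalised and summarised per probe set), and a difference of 1 is 2-fold. Probe sets differ in affinity, so the members' levels were compared between arrays and not with each other. Places among all probe sets are given only to describe how bright a probe set was. The hepatocyte list of 8 genes, among them Alb, Ttr and Apoa1, averaged 12.98 to 13.21 on every array, which fits the liver label. Arrays correlated with each other at 0.987 to 0.996 across probe sets. The GAPDH controls, whose signal is read near both ends of the transcript, set 2 arrays apart. Their 3′ minus 5′ difference was 0.41 log2 on replicate 5 of the 70.6 mg/kg group, 0.33 on replicate 4 of the 0.07 mg/kg group, and no more than 0.093 elsewhere. The fits, the correlations between members and those with the control difference were also run without these arrays. Spreads within groups and the ranking of genes most like each member rest on all arrays.

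Ces1e, Ces1d and Ces1c lie next to each other on chromosome 19 in the RefSeq gene table (GRCr8), between Ces1f and Ces1a, and Ces2c lies on chromosome 1 between the pseudogenes Ces2c-ps1 and Ces2e-ps1. Their start regions are shown to let these neighbouring copies of 1 family be compared. The arrays read the 3′ part of transcripts, so the windows say nothing of whether a probe set reads more than 1 copy, which was not tested. RefSeq windows of 300 bases, 250 before and 50 after the gene's start, were found for 8 of 8 members. The 3 windows from the chromosome 19 cluster, all on the + strand of GRCr8, are printed 5′ to 3′ at chr19:30099197-30099496 (Ces1c), chr19:30046244-30046543 (Ces1d) and chr19:30005923-30006222 (Ces1e). Capitals mark the longest stretch that all 3 share exactly.
Ces1c: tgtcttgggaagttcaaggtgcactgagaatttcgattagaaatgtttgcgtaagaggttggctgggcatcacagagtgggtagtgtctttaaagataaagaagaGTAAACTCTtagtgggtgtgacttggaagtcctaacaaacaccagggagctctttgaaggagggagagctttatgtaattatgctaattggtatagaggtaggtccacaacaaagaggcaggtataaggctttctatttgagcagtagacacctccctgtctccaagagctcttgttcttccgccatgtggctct
Ces1d: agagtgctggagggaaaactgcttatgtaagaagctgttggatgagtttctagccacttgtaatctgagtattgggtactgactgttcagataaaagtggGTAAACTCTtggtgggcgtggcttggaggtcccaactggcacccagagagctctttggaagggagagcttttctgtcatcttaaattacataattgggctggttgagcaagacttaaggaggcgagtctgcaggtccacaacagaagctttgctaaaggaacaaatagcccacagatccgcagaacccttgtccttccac
Ces1e: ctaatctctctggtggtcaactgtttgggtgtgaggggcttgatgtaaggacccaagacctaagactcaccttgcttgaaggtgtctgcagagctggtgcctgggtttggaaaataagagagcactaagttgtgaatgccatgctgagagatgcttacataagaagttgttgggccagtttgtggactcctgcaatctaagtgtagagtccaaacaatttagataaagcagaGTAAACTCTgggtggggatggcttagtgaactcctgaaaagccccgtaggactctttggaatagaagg

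The shared stretch GTAAACTCT, of 9 bases, was searched on both strands and stood in 0.233% of 33469 rat start windows and in no other member's window. It began 145 bases before the gene start in Ces1c, 150 before in Ces1d and 18 before in Ces1e. In a global alignment, Ces1c and Ces1d were identical at 59.4% of aligned positions, against 40.8% to 52.4% for the other 27 pairs of members. Ces1e gave 46.3% with Ces1c and 42.7% with Ces1d. Windows were aligned end to end, and the shared stretch lies at another distance from the gene start in Ces1e. The Ces1e values therefore do not compare the bases around that stretch. The nuclear receptor half-site letters AGTTCA, on either strand, stood in 5 of 8 windows (Ces1c, Ces1e, Ces2c, Aadac and Lipc) and in 14.5% of all windows. The half-site letters AGGTCA stood in 2 (Lipc and Cel) and in 16.2% of all. A match to such short letters describes the window and marks no binding site.

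None of the 8 transcripts passed the test against vehicle at any dose. With limma and Benjamini-Hochberg adjustment over 31042 probe sets, 0 of 8 members had an adjusted p under 0.05 at any of the 5 doses, where 0.0% of all probe sets were called in each comparison. The 40 differences ran from -0.20 to 0.20 log2. All 40 of their 95% intervals lay within 1.5-fold of vehicle in either direction, and the widest bound was 1.33-fold, for Ces2c. These bounds are on probe set signal. For Cel, dim at a mean of 4.35, signal and background were not separated, so its intervals do not bound the transcript. In each comparison the 6 dosed and 6 vehicle arrays overlapped for all 8 members, and they were apart for 0.148% of all probe sets at 0.07 mg/kg, 0.155% at 0.71 mg/kg, 0.216% at 7.06 mg/kg, 0.168% at 70.6 mg/kg and 0.142% at 706 mg/kg. At an unadjusted p under 0.05, 0 members were higher and 0 lower at 0.07 mg/kg, where 1.25% of all probe sets were higher and 1.82% lower. The members' counts were also 0 and 0 at 0.71 mg/kg (1.45% and 2.53% of all), at 70.6 mg/kg (2.42% and 2.82%) and at 706 mg/kg (1.33% and 2.15%). At 7.06 mg/kg 0 members were higher (1.1% of all) and 1, Cel, was lower (2.38% of all). The 5 comparisons share the vehicle arrays, so a difference that recurs across doses is not repeated evidence.

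**Figure D1:**
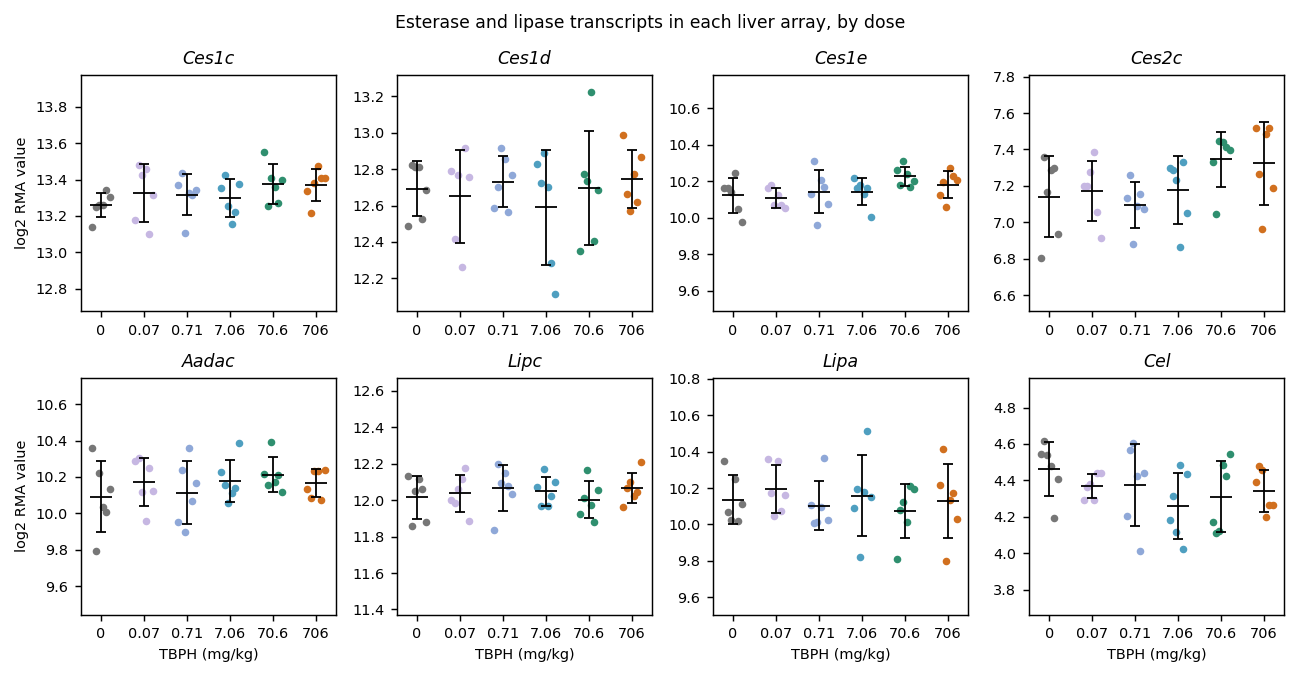
Each point is 1 liver array, placed by TBPH dose in mg/kg (0 is vehicle), with its log2 RMA value on the y axis; bars are the group mean ± SD (n = 6), and each panel spans the same 1.3 log2 units. The dose groups overlap for every gene, and the points of Ces1d scatter most.

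Ces2c, a carboxylesterase of the second family that in rat liver also cleaves acylcarnitines, had the largest difference upward. At 706 mg/kg its lowest, median and highest values were 6.96, 7.38 and 7.52, against 6.80, 7.23 and 7.36 in vehicle. 3 of the 6 arrays at this dose lay above every vehicle array, and the others lay among them. The mean was 7.32 ± 0.23 (SD, n = 6) at 706 mg/kg and 7.14 ± 0.22 in vehicle (SD, n = 6), a difference of 0.18 with a 95% interval of -0.026 to 0.39 (limma, adjusted p = 1.00).

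At 70.6 mg/kg Ces2c had a lowest, median and highest value of 7.05, 7.40 and 7.45, against the same vehicle arrays. Replicate 2 lay well below the other 5 arrays of that dose. The difference was 0.20 (-0.0037 to 0.41; limma, adjusted p = 0.921). At the lower doses Ces2c differed by 0.030 at 0.07 mg/kg, -0.044 at 0.71 mg/kg and 0.036 at 7.06 mg/kg, so its 2 highest means belonged to the 2 highest doses.

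Over the dose ranks from vehicle to 706 mg/kg, the Ces2c slope was 0.043 log2 per step (95% interval 0.0084 to 0.078), with an unadjusted p of 0.0163 and an adjusted p of 0.998 (limma). Ces1e had a slope of 0.019 per step (0.00074 to 0.036; unadjusted p = 0.0416, limma adjusted p = 0.998). Over all arrays, these were the 2 of 8 members with an unadjusted p under 0.05 for the slope, both upward. The Ces1c slope there was 0.019 (-0.0024 to 0.041; unadjusted p = 0.0793, limma adjusted p = 0.998). Without both arrays of high control difference it was 0.023 (0.0012 to 0.045; unadjusted p = 0.0393, limma adjusted p = 0.895). Ces2c (0.045) and Ces1e (0.019) also had an unadjusted p under 0.05 without those arrays. In the fit to all arrays, upward slopes with an unadjusted p under 0.05 were found in 1.72% and downward ones in 2.44% of all probe sets. There 0.0% of probe sets passed the adjusted threshold. Among the 11680 probe sets with a mean of at least 6, 262 of the 368 slopes with such a p were upward.

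Ces1c and Ces1e lay slightly above vehicle at the 2 highest doses, without passing the test. Ces1c, which encodes the plasma carboxylesterase in the mouse, had a lowest, median and highest value of 13.22, 13.39 and 13.47 at 706 mg/kg, against 13.14, 13.26 and 13.34 in vehicle. 4 of the 6 dosed arrays exceeded the highest vehicle array. The difference was 0.11 (-0.024 to 0.24; limma, adjusted p = 1.00) at 706 mg/kg and 0.11 (-0.021 to 0.25; adjusted p = 0.921) at 70.6 mg/kg. At the lower doses Ces1c differed by 0.065 at 0.07, 0.055 at 0.71 and 0.037 at 7.06 mg/kg, and vehicle had its lowest mean.

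A second Ces1c probe set, dim at a mean of 3.31, disagreed with the bright one. It lay below vehicle at all 5 doses, with differences of -0.20 at 0.07, -0.15 at 0.71, -0.26 at 7.06, -0.10 at 70.6 and -0.15 at 706 mg/kg, with limma adjusted p of 0.922 to 1.00. Intervals left out 0 at 0.07 mg/kg (-0.35 to -0.044; unadjusted p = 0.0129) and at 7.06 mg/kg (-0.41 to -0.11; unadjusted p = 0.0013). Over all probe sets, 387 of 953 differences with an unadjusted p under 0.05 were upward at 0.07 mg/kg and 341 of 1079 at 7.06 mg/kg. Among probe sets with a mean of at least 6, these were 127 of 235 and 158 of 201. Downward differences were thus mostly in dim probe sets. The deviations of the 2 probe sets from their group means correlated at -0.037 over the 36 arrays. Which of them reads the transcript was not tested, and the Ces1c values here are those of the bright probe set.

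Ces1e, known in the mouse as egasyn, which holds beta-glucuronidase in the endoplasmic reticulum, had a lowest, median and highest value of 10.17, 10.22 and 10.31 at 70.6 mg/kg, against 9.98, 10.15 and 10.24 in vehicle. The ranges of both groups overlapped. Its difference was 0.11 (-0.0036 to 0.21; limma, adjusted p = 0.921). That interval left out 0 under 5 of 8 other settings and in 2 of 12 fits without 1 array of these groups, with no adjusted call. At 706 mg/kg it was 0.059 (-0.050 to 0.17; adjusted p = 1.00), and at the other doses between -0.013 and 0.021.

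Ces1d, the triacylglycerol hydrolase that releases stored fat for secretion from hepatocytes, showed the least regular pattern. Its lowest, median and highest values were 12.57, 12.72 and 12.99 at 706 mg/kg, against 12.49, 12.75 and 12.82 in vehicle. 2 of the dosed arrays lay above every vehicle array, 2 of the vehicle arrays lay below every dosed one, and the rest overlapped. The difference was 0.056 (-0.21 to 0.32; limma, adjusted p = 1.00). At 7.06 mg/kg the 6 arrays ran from 12.11 to 12.89 around a median of 12.71, and the difference was -0.10 (-0.36 to 0.16; adjusted p = 1.00).

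Aadac, which hydrolyses drug amides and esters, had a lowest, median and highest value of 10.07, 10.18 and 10.24 at 706 mg/kg, against 9.80, 10.08 and 10.36 in vehicle. The dosed arrays lay inside the vehicle range. Its differences were 0.083 at 0.07, 0.022 at 0.71, 0.088 at 7.06, 0.12 at 70.6 and 0.074 at 706 mg/kg, and vehicle had the lowest of the 6 means. The interval that reached farthest was -0.042 to 0.28, at 70.6 mg/kg (limma, adjusted p = 0.921).

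Lipc, the hepatic lipase, had the smallest span of group means, 0.066 log2 between the highest (706 mg/kg) and the lowest (70.6 mg/kg). Its lowest, median and highest values were 11.96, 12.06 and 12.21 at 706 mg/kg, against 11.86, 12.05 and 12.13 in vehicle. Both groups overlapped over most of their range. The difference was 0.052 (-0.077 to 0.18; limma, adjusted p = 1.00).

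Lipa, the lysosomal acid lipase, had differences on both sides of 0, the highest 0.058 at 0.07 mg/kg and the lowest -0.065 at 70.6 mg/kg. At 706 mg/kg its lowest, median and highest values were 9.80, 10.15 and 10.41, against 10.02, 10.09 and 10.35 in vehicle. The dosed arrays reached beyond the vehicle arrays in both directions, and the difference was -0.0090 (-0.20 to 0.18; limma, adjusted p = 1.00).

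Cel was the one member that lay below vehicle at all 5 doses. At 7.06 mg/kg its lowest, median and highest values were 4.03, 4.25 and 4.48, against 4.19, 4.51 and 4.62 in vehicle. The highest dosed arrays lay among the vehicle arrays. The difference was -0.20 (-0.39 to -0.015), with an unadjusted p of 0.0349 and a limma adjusted p of 1.00. In the fit to all 36 arrays it was the only one of the 40 intervals that left out 0, and it covered 0 in 6 of the 12 fits without 1 array of these groups (3 dosed, 3 vehicle). It left out 0 under 7 of 7 other settings, with no adjusted call. Downward differences with an unadjusted p under 0.05 made up 2.38% of all probe sets at this dose. Over all probe sets, 341 of the 1079 differences with such a p were upward. Among the 11680 with a mean of at least 6, fitted alone, 158 of 201 were upward. The downward ones were thus mostly dim probe sets, as that of Cel is. Elsewhere Cel differed by -0.096 at 0.07, -0.089 at 0.71, -0.15 at 70.6 and -0.12 at 706 mg/kg.

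The Cel probe set averaged 4.35, below the table's median of 5.09, and the table used here holds no detection call, so signal and background were not separated. Of 11 measured markers of pancreatic acinar cells, 10 were also below that median in every group, and Cela1, at 10.14, was the exception. The list averaged 4.02 to 4.18 per array at 7.06 mg/kg, against 4.10 to 4.17 in vehicle. At this dose its median difference was -0.059, from 9 lower and 2 higher genes, and with Cel the list mean gave r = 0.29 within groups, or 0.0019 without the 2 arrays farthest from its median. That mean includes Cela1, which ran from 9.48 to 10.80 over all arrays, the widest range of the 11 genes. The part of pancreatic RNA in the Cel values was not tested.

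**Figure D2:**
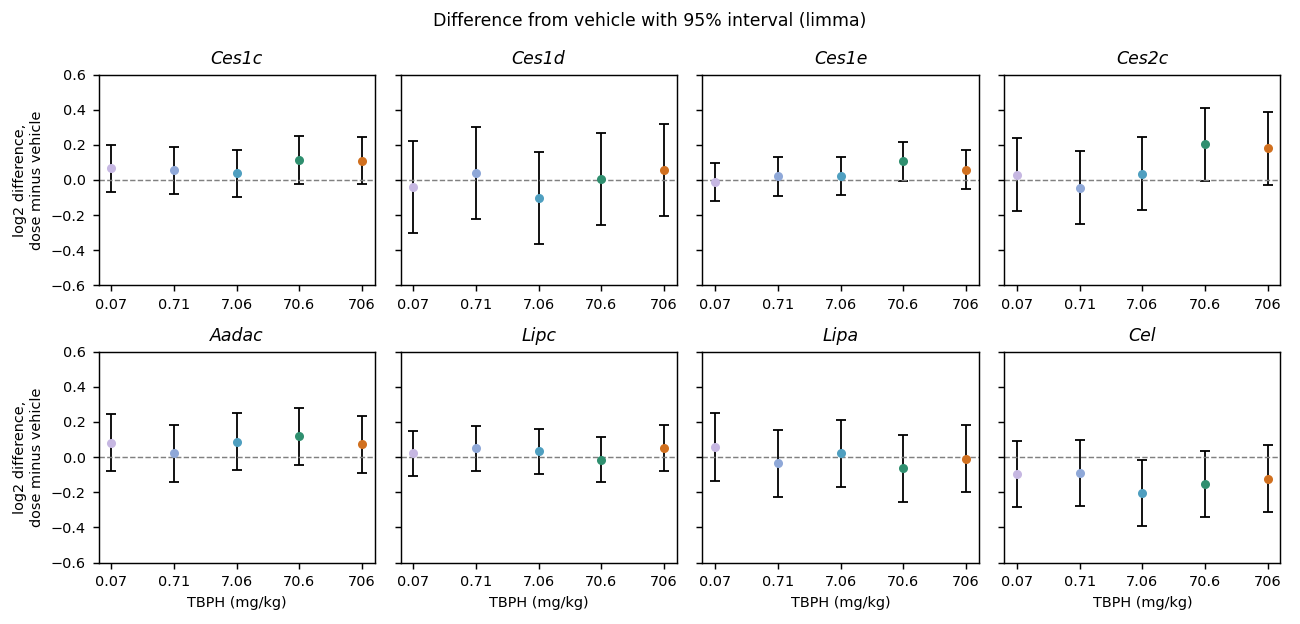
Points are log2 differences, dose minus vehicle, for 5 TBPH doses in mg/kg, and bars are 95% intervals from limma on 36 arrays. All intervals lie between -0.39 and 0.41, and only that of Cel at 7.06 mg/kg leaves out 0.

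Read as a group, 6 of 8 members were higher and 2 lower at 706 mg/kg, with a median difference of 0.058, where the median over all probe sets was -0.0034 and that of probe sets with a mean of at least 6 was 0.017. The member medians at the lower doses were 0.026 at 0.07, 0.021 at 0.71, 0.028 at 7.06 and 0.055 at 70.6 mg/kg, with 5, 5, 6 and 5 of 8 members higher, and the medians over all probe sets lay between -0.0041 and -0.0021. Among probe sets with a mean of at least 6 the medians were 0.0038 at 0.07, 0.017 at 0.71, 0.022 at 7.06 and 0.014 at 70.6 mg/kg. Of all probe sets, 47.9% to 48.9% were higher at the 5 doses. In no member did 2 neighbours in the order of the 6 group means differ by more than the pooled SD within groups. The widest such gap was 0.15, in Ces2c, between 70.6 and 706 mg/kg on one side and the 4 lower groups on the other, against a pooled SD of 0.18. That SD is of single arrays, while the limma standard error of a Ces2c difference between group means was 0.10. A test of any difference among the 6 groups gave F = 1.95 for Ces2c (unadjusted p = 0.111, limma adjusted p = 1.00), the largest of the 8, and 0.36 to 1.31 for the others. No member had an unadjusted p under 0.05 in that test, which 2.54% of all probe sets had.

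Spread between arrays of the same group was set beside that of probe sets of like level. Ces1d had a pooled SD of 0.23 log2 (30 degrees of freedom), more than 95.2% of the 231 probe sets within 0.5 log2 of its level, whose median SD was 0.090. Its 36 values ran from 12.11 (replicate 6 at 7.06 mg/kg) to 13.22 (replicate 4 at 70.6 mg/kg), a 2.16-fold range. Its group SDs were 0.15 in vehicle, 0.25 at 0.07, 0.14 at 0.71, 0.32 at 7.06, 0.31 at 70.6 and 0.16 at 706 mg/kg, and their difference was not tested. The 2 arrays of high control difference had low Ces1d values, 12.41 and 12.26, at 70.6 and 0.07 mg/kg, which lay 0.29 and 0.39 below their group means.

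Ces1e was at the other end, with a pooled SD of 0.082, less than most of the 897 probe sets near its level (14.0% were steadier), and a 1.27-fold range over all arrays. Ces1c was variable for so bright a probe set: its SD of 0.11 exceeded that of 84.5% of the 110 probe sets near its level. Its probe set was brighter than 99.8% of all. Lipa (0.17) and Ces2c (0.18) exceeded 75.1% and 73.0% of probe sets near their levels. Aadac (0.14), Lipc (0.10) and Cel (0.16) lay closer to the middle, at 62.4%, 54.3% and 54.6%.

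**Figure D3:**
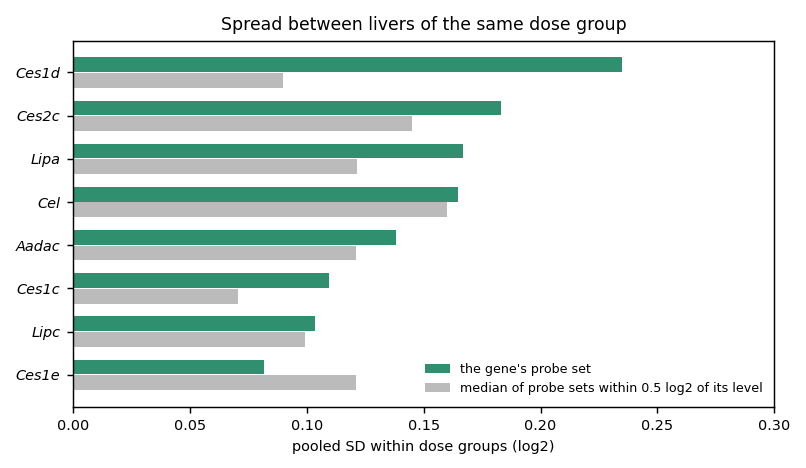
Green bars are the pooled SD within dose groups of each gene's log2 values (36 arrays), and grey bars are the median SD of probe sets within 0.5 log2 of its level. Ces1d stands at 0.23 against 0.090, and Ces1e at 0.082 against 0.12.

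Between arrays of the same group, Ces2c varied most with Ces1e and Ces1c, although no pair of members passed the adjusted threshold over all 36 arrays. Correlations were taken over 36 arrays as deviations from the group means, with permutation within groups (100000 resamples, two-sided) and adjustment over 28 pairs. Of the 28 values 14 were above 0 and 14 below, from -0.33 to 0.51, and 3 had an unadjusted p under 0.05. Labels and file give no batch, so no within-batch value could be had.

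Ces1e and Ces2c gave r = 0.51 (permutation p = 0.00235, adjusted p = 0.0658) and rho = 0.44 (permutation p = 0.015, adjusted p = 0.419). The coefficient was above 0 in all 6 groups, 0.92 at 0.71 mg/kg at the highest and 0.28 in vehicle at the lowest, each over 6 arrays. It was 0.42 without the 2 arrays farthest from the Ces1e median and 0.53 without those of high control difference. Without the vehicle arrays it was 0.58 and passed the threshold (permutation, adjusted p = 0.0255). Of all other genes, 157 had a higher r with Ces1e and 145 with Ces2c, out of 14217 genes.

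Ces1c and Ces2c gave r = 0.44 (permutation p = 0.00896, adjusted p = 0.125) and rho = 0.37 (permutation p = 0.0328, adjusted p = 0.429), again above 0 in all 6 groups, 0.94 at 0.71 mg/kg at the highest and 0.18 at 706 mg/kg at the lowest. It was 0.37 without the 2 arrays farthest from the Ces1c median. Aadac and Lipc gave r = 0.39 (permutation p = 0.0455, adjusted p = 0.424) and rho = 0.28 (permutation p = 0.132, adjusted p = 0.433). In the 0.71 mg/kg group replicate 3 had the lowest value of Ces1c, Ces1e, Ces2c and Aadac and the highest of Ces1d and Cel.

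No pair among the 3 neighbours on chromosome 19 passed the threshold. The coefficient of Ces1c and Ces1d was below 0, r = -0.33 (permutation p = 0.0852, adjusted p = 0.461) and rho = -0.38 (permutation p = 0.0459, adjusted p = 0.429), and r was -0.22 without the 2 arrays farthest from the Ces1c median. The value was -0.80 at 0.07 mg/kg and 0.19 in vehicle. Ces1c and Ces1e gave 0.28 (rho = 0.22; permutation p = 0.112 and 0.205, adjusted p = 0.461 and 0.441), which was 0.084 without the 2 arrays farthest from the Ces1c median. Ces1d and Ces1e gave 0.11 (rho = 0.099; permutation p = 0.508 and 0.570, adjusted p = 0.769 and 0.841).

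**Figure D4:**
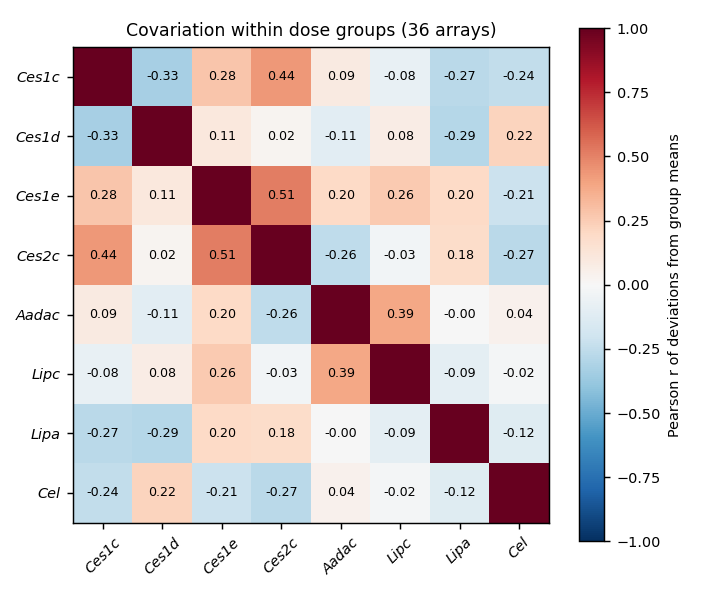
Each cell is Pearson's r between 2 genes over 36 arrays, as deviations from the dose group means, on a scale from -1 (blue) to 1 (red). The highest value is 0.51, for Ces1e and Ces2c, and the lowest is -0.33, for Ces1c and Ces1d.

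**Figure D5:**
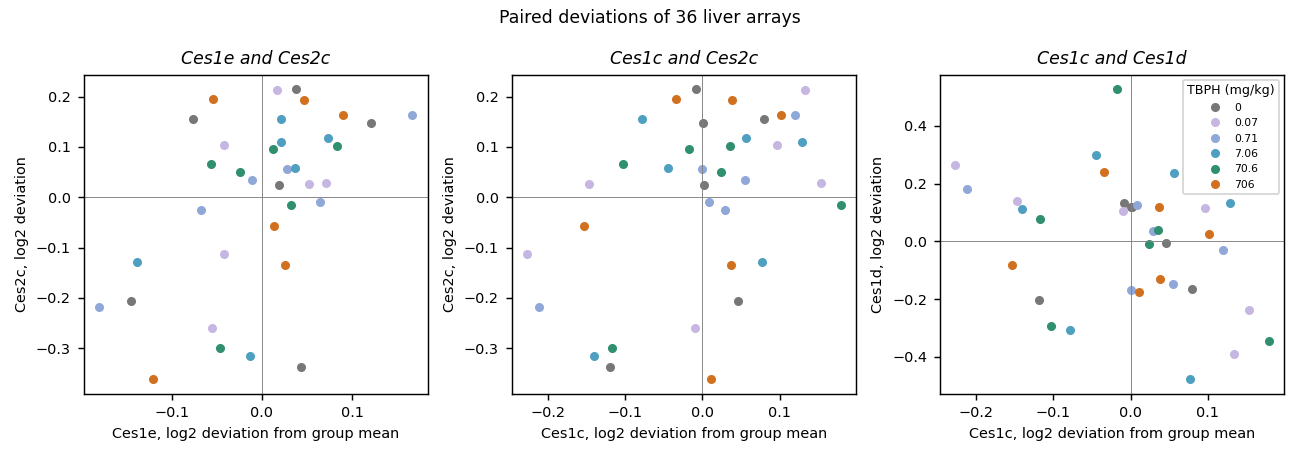
Each point is 1 array, with both axes in log2 units as the deviation from its group's mean and colours for the TBPH dose in mg/kg (0 is vehicle). Ces2c is plotted against Ces1e (r = 0.51) and Ces1c (r = 0.44), and Ces1d against Ces1c (r = -0.33).

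Lipa was the 1 member whose deviations correlated with the GAPDH control past the threshold. They correlated with the GAPDH 3′ to 5′ difference at r = 0.46 (permutation p = 0.00227, adjusted over the 8 members p = 0.0182) and rho = 0.47 (permutation p = 0.0058, adjusted p = 0.0464). The value was above 0 in all 6 groups, from 0.19 to 0.72. Without the 2 arrays of high control difference, which are also those farthest from the median of the control difference, r was again 0.46 but its adjusted p was 0.0646. Without them the Lipa differences were 0.027 at 0.07 mg/kg and -0.093 at 70.6 mg/kg. The other 7 members had r from -0.32 (Ces1d) to 0.11 (Ces2c), with adjusted p of 0.528 or more, and the Ces1d value was 0.018 without the same arrays.

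Lipa is also a gene of macrophages and of every lysosome. It gave r = 0.55 (rho = 0.47) with the mean of 12 lysosome genes (permutation p = 0.00225 and 0.00644, adjusted over 32 relations p = 0.072 and 0.206), and 0.31 without the 2 arrays farthest from the median of that mean. With 9 measured Kupffer cell and macrophage markers it gave r = 0.36 (rho = 0.36; permutation p = 0.0569 and 0.0444, adjusted p = 0.455 and 0.474). The mean of those markers ran from 8.39 to 8.93 at 706 mg/kg, against 8.43 to 8.89 in vehicle. Their median difference was 0.057 at 0.07 mg/kg (9 of 9 higher), 0.11 at 0.71 mg/kg (9 of 9 higher), -0.12 at 7.06 mg/kg (8 of 9 lower), 0.078 at 70.6 mg/kg (9 of 9 higher) and 0.012 at 706 mg/kg (6 of 9 higher), with 0 adjusted calls by limma and 0 at an unadjusted p under 0.05. Of all probe sets, 47.9% to 48.9% were higher at these doses and 0.0% had an adjusted call. In each direction, 1.1% to 2.82% had an unadjusted p under 0.05. The part of these markers in the Lipa values was not tested, and in whole tissue fewer cells of a type and less RNA per cell cannot be told apart. Ces1d gave r = -0.44 with the same macrophage markers (rho = -0.39; permutation p = 0.0162 and 0.0334, adjusted p = 0.259 and 0.474), and -0.40 without the 2 arrays farthest from their median. None of the 32 relations between members and these lists passed the threshold.

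For each member, 14209 other genes were ranked by the same within-group r over 36 arrays. All members were left out of the ranked genes, so no member could appear among the genes most like another. The ranking therefore does not say whether members vary with their own class. Ces1e was nearest to Gatd3a (0.78), Tm9sf4 (0.70) and Tp53i13 (0.68). Ces2c was nearest to Acsm5 (0.75), a mitochondrial acyl-CoA synthetase, Spice1 (0.73) and Ugt2b34l1 (0.72). For Ces1c these were Tent4b (0.60), Rasa3 (0.59) and Ktn1 (0.59), and for Ces1d Cdh17 (0.65), Sgtb (0.61) and Ehd3 (0.59). With the GAPDH control difference Sgtb had r = -0.62 and Ehd3 -0.62, where Ces1d had -0.32. The nearest genes of Ces1c and Ces1d had lower r than those of Ces1e and Ces2c, with no test of that order.

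Aadac was nearest to Abat (0.68), the transaminase that breaks down GABA, Dnajc3 (0.66) and Akr1c3 (0.65). Lipc was nearest to Lox (0.68), Suox (0.64) and Snrnp200 (0.64). Lipa was nearest to the translation factor Eef2 (0.76), Ogdh (0.75) and the ribosomal protein gene Rpl27 (0.75). Those 3 genes had r of 0.63, 0.59 and 0.67 with the control difference, as Lipa had 0.46. Cel was nearest to Ankrd36 (0.71), Vav1 (0.67) and Tgm3 (0.66). With this many genes ranked, the top values are a description of these arrays.

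Among the other listed genes of ester and lipid hydrolysis, limma made 0 adjusted calls at any dose. Of 17 other carboxylesterases only Ces5a had a probe set of its own, dim at 3.73, with differences from -0.12 to -0.067. Among 14 intracellular lipases and cofactors 4 were higher and 10 lower at 706 mg/kg (median -0.053), and 5 higher and 9 lower at 70.6 mg/kg (median -0.065). The smallest p there belonged to Pnpla8, at -0.15 (-0.29 to -0.016; limma adjusted p = 0.921). At 7.06 mg/kg Nceh1, a cholesteryl ester hydrolase related to Aadac, differed by -0.46 (-0.99 to 0.073; adjusted p = 1.00).

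Of 7 measured genes of lipoprotein lipases and their cofactors 4 were higher and 3 lower at 706 mg/kg (median 0.0060). Angptl4, an inhibitor of lipoprotein lipase, differed there by 0.30 (-0.35 to 0.94; limma adjusted p = 1.00). Gpihbp1, which anchors lipoprotein lipase to capillaries, differed by -0.20 (-0.33 to -0.079; unadjusted p = 0.00209, limma adjusted p = 1.00) at 7.06 mg/kg. Of 9 other esterases 5 were higher and 4 lower at 706 mg/kg (median 0.0088). The median of 12 lysosome genes at 706 mg/kg was 0.032, from 7 higher and 5 lower. It was 0.040 at 0.07 mg/kg and 0.065 at 0.71 mg/kg (11 of 12 higher at each). At 7.06 mg/kg it was 0.038 (10 of 12 higher) and at 70.6 mg/kg 0.045 (9 of 12 higher). Of all probe sets, 47.9% to 48.9% were higher at the 5 doses, which share the vehicle arrays. Among 9 regulators, including the receptors Nr1i2 (PXR), Nr1i3 (CAR) and Ppara, 7 were higher and 2 lower at 706 mg/kg. Rxra, the common partner of these receptors, had the smallest p there, at 0.18 (-0.012 to 0.37, limma adjusted p = 1.00). At 7.06 mg/kg 9 of 9 regulators were higher (median 0.064), at 0.07 and 70.6 mg/kg 6, and at 0.71 mg/kg 4.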

How the data were processed

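Liver RNA from 36 arrays (Affymetrix rat 3′ expression arrays) was used as 1 table of log2 values that the authors deposited. Per the submitters' processing notes it was made with RMA in the affy package, with no version or genome build named. The log2 values ran from 1.86 to 14.77 with none missing. Removing 57 array controls from its 31099 features left 31042 probe sets, of which 20826 had 1 symbol, 436 several and 9780 none. Arrays give no depth, and their number limits the precision.

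Groups came from the sample titles. limma 3.58.1 (R 4.3.3) estimated the 6 group means from all arrays together, on 30 residual degrees of freedom, with two-sided moderated tests and Benjamini-Hochberg adjustment over 31042 probe sets at 0.05. It stands in for R/maanova, the package of the design text, which could not be run here. The fit and the correlations were tested on simulated data. Figures used matplotlib 3.10.9 in Python 3.11.15.

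Each member's probe set was the one with the highest mean. Named genes were the members, the 3 genes most like each, and examples with the smallest p in each list. Members, lists and alternatives were chosen with earlier results of these data known, and the relations with marker lists after these values were seen. Alternatives fitted only the compared groups, added a replicate block or array weights, changed the moderation, dose scale, threshold or normalization, left out dim probe sets or used other ones, and dropped single arrays. RefSeq names, neighbours and sequences are from GRCr8.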

Additional observations from a re-analysis of the deposited data

Results flagged for a closer look

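In 48 sets of 6 arrays (8 members in 6 groups), 4 arrays lay farther from their nearest neighbour, as a share of the group's range, than Dixon's 95% critical value. Chance gives about 1 in 20 sets. Ces1c replicate 3 at 0.71 mg/kg was low, at 13.10 against 13.32 for the next array. Ces2c replicate 2 at 70.6 mg/kg was low, at 7.05 against 7.33 for the next. Aadac replicate 3 at 70.6 mg/kg was high, at 10.39 against 10.22. Lipa replicate 5 at 0.71 mg/kg was high, at 10.36 against 10.11.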

How the results depend on the processing

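No probe set was called in any comparison under any setting run, among them array weights, dim probe sets left out, an adjusted p under 0.1 and single arrays left out, and the lowest adjusted p of a member was 0.755. Some differences changed sign: with array weights Lipa at 706 mg/kg (0.029) and Ces1d at 0.07 mg/kg (0.00075); after a further quantile normalization Ces1d at 70.6 mg/kg (-0.0077) and Aadac at 0.71 mg/kg (-0.00097); without both arrays of high control difference Lipc at 70.6 mg/kg (0.0098), Ces1d at 0.07 mg/kg (0.038) and Ces2c at 0.07 mg/kg (-0.013). With the mean of both Ces1c probe sets, Ces1c differed by -0.065 at 0.07, -0.048 at 0.71, -0.11 at 7.06 and -0.020 at 706 mg/kg, since the dim probe set enters, against 0.065, 0.055, 0.037 and 0.11 from the bright one. Without 1 array, 13 of 40 differences could change sign. Their ranges at 0.07 mg/kg were -0.093 to 0.038 for Ces1d, -0.042 to 0.011 for Ces1e, -0.038 to 0.081 for Ces2c and -0.011 to 0.052 for Lipc, and at 0.71 mg/kg -0.013 to 0.056 for Ces1e, -0.037 to 0.076 for Aadac and -0.087 to 0.0073 for Lipa. At 7.06 mg/kg they were -0.0076 to 0.049 for Ces1e, -0.032 to 0.099 for Ces2c and -0.050 to 0.089 for Lipa, at 70.6 mg/kg -0.10 to 0.074 for Ces1d and -0.047 to 0.0098 for Lipc, and at 706 mg/kg -0.066 to 0.057 for Lipa. Those of Ces2c ran from 0.11 to 0.25 at 706 mg/kg and from 0.14 to 0.26 at 70.6 mg/kg, and that of Cel at 7.06 mg/kg from -0.26 to -0.16.

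The replicate numbers shared by the groups did not pair the arrays: same-numbered arrays correlated above 0.1 in 17 of 90 pairs (from -0.41 to 0.27), and 4 of 36 arrays correlated best with their own number. With the replicate block the fits again gave 0 calls. There Ces1c and Ces2c gave r = 0.56 (permutation, adjusted p = 0.0294), the 1 pair under 0.05. The shuffling was within groups and did not keep the replicate numbers, whose means had been removed. Its p-values are therefore too small, and this pair is not read as a call. Without the vehicle arrays 1 pair was called, Ces1e and Ces2c (r = 0.58, adjusted p = 0.0255). The cause was not tested. Ces1d and Ces2c had r of -0.057, -0.0058 and -0.044 without the vehicle, 7.06 and 706 mg/kg arrays, and Ces1d and Ces1e -0.064 without the 7.06 mg/kg arrays. Without both arrays of high control difference 0 members were called for that difference, and Lipa (r = 0.46) had an adjusted p of 0.0646. Of the other 21 pairs, 20 of 189 alternatives changed sign and 0 were called.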
